A study of Gallus gallus with 6 samples.

Results

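Kinesins are motor proteins that walk along microtubules or take them apart, and the proteins named CENP were mostly found at centromeres, the chromosome sites where spindle microtubules attach. The genes described here are the rows of the deposited tables whose symbol is KIF followed by a number and at most a letter A to C, KIFC followed by a digit, or CENP followed by a letter. This gave 55 of the 14903 genes, 35 kinesins and 20 CENP genes. They were measured by paired-end RNA sequencing of total RNA from HD11, a transformed chicken cell line of wild type genotype with the character of macrophages. The 3 mock libraries came from untreated cells and the 3 IFN-beta libraries from cells given recombinant chicken interferon beta, a type I interferon, at 100 ng/mL for 3 h. No time is given here for the mock cells. The labels call the libraries of a group independent biological replicates and place all 6 in a single batch.

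A kinesin has a motor domain that uses ATP, and its tail sets what it moves. In dividing cells a set of kinesins builds the spindle, moves chromosomes and helps the daughter cells to separate, and many of their genes are transcribed mainly late in the cell cycle. Other kinesins carry vesicles, mitochondria and protein complexes in cells that are not dividing. At the centromere, nucleosomes with the histone variant CENPA are bound by the constitutive centromere-associated network, a group of CENP proteins that stays there through the cell cycle and on which the outer kinetochore forms.

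Libraries held 15665594 to 15885227 counts, and 51 to 53 of the 55 genes had a count above 0 in each. Levels are given as CPM, counts relative to the effective library size, in which TMM factors set the bulk of genes equal between libraries. They are mean ± SD with n = 3 libraries per group. Levels of different genes are compared as TPM, which is also divided by transcript length. Of 9 macrophage markers found, 8 had a mean of at least 1 TPM, while none of the 4 fibroblast, 5 T cell, 2 erythroid and thrombocyte and 1 epithelial markers found did, and BLK was the only one of 3 B cell markers that did. In bulk RNA, fewer cells in a phase of the cell cycle and less RNA per cell cannot be told apart.

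Of the 55 genes, 48 passed the filter on low counts and were tested. With IFN-beta 17 were lower and 4 were higher at an adjusted p under 0.05 (edgeR quasi-likelihood test, Benjamini-Hochberg over 11091 genes), and 27 did not pass. Over all tested genes 46.7% passed, 22.4% lower and 24.3% higher. The median log2 fold change was -0.10 over the 48 genes and -0.00 over all tested genes. Most shifts were small, and 3 of the 17 lower genes and 1 of the 4 higher genes changed by at least 1.5-fold, against 23.7% of all lower and 24.5% of all higher genes. The counts depended on scaling. With library size alone 28 were lower and 2 higher, and on log2(TPM + 1) 26 were lower and 1 higher. Of all tested genes 36.1% were then lower and 15.6% higher with library size alone, and 35.5% lower and 12.8% higher on log2(TPM + 1), while the median of all tested genes moved to -0.09 and -0.10. The gap between the median of the 48 genes and that of all tested genes was -0.10 with TMM factors and with library size alone. Scaling moves all genes by nearly the same amount, so the gap could hardly differ between these fits. On log2(TPM + 1), where a filter on TPM left 47 of the 55 genes and 10156 of all genes, it was -0.09. Under all 17 alternatives 12 of the lower genes and KIF5C among the higher ones kept their call. How many of all called genes kept theirs was not counted, so these numbers have no background beside them.

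**Figure D1:**
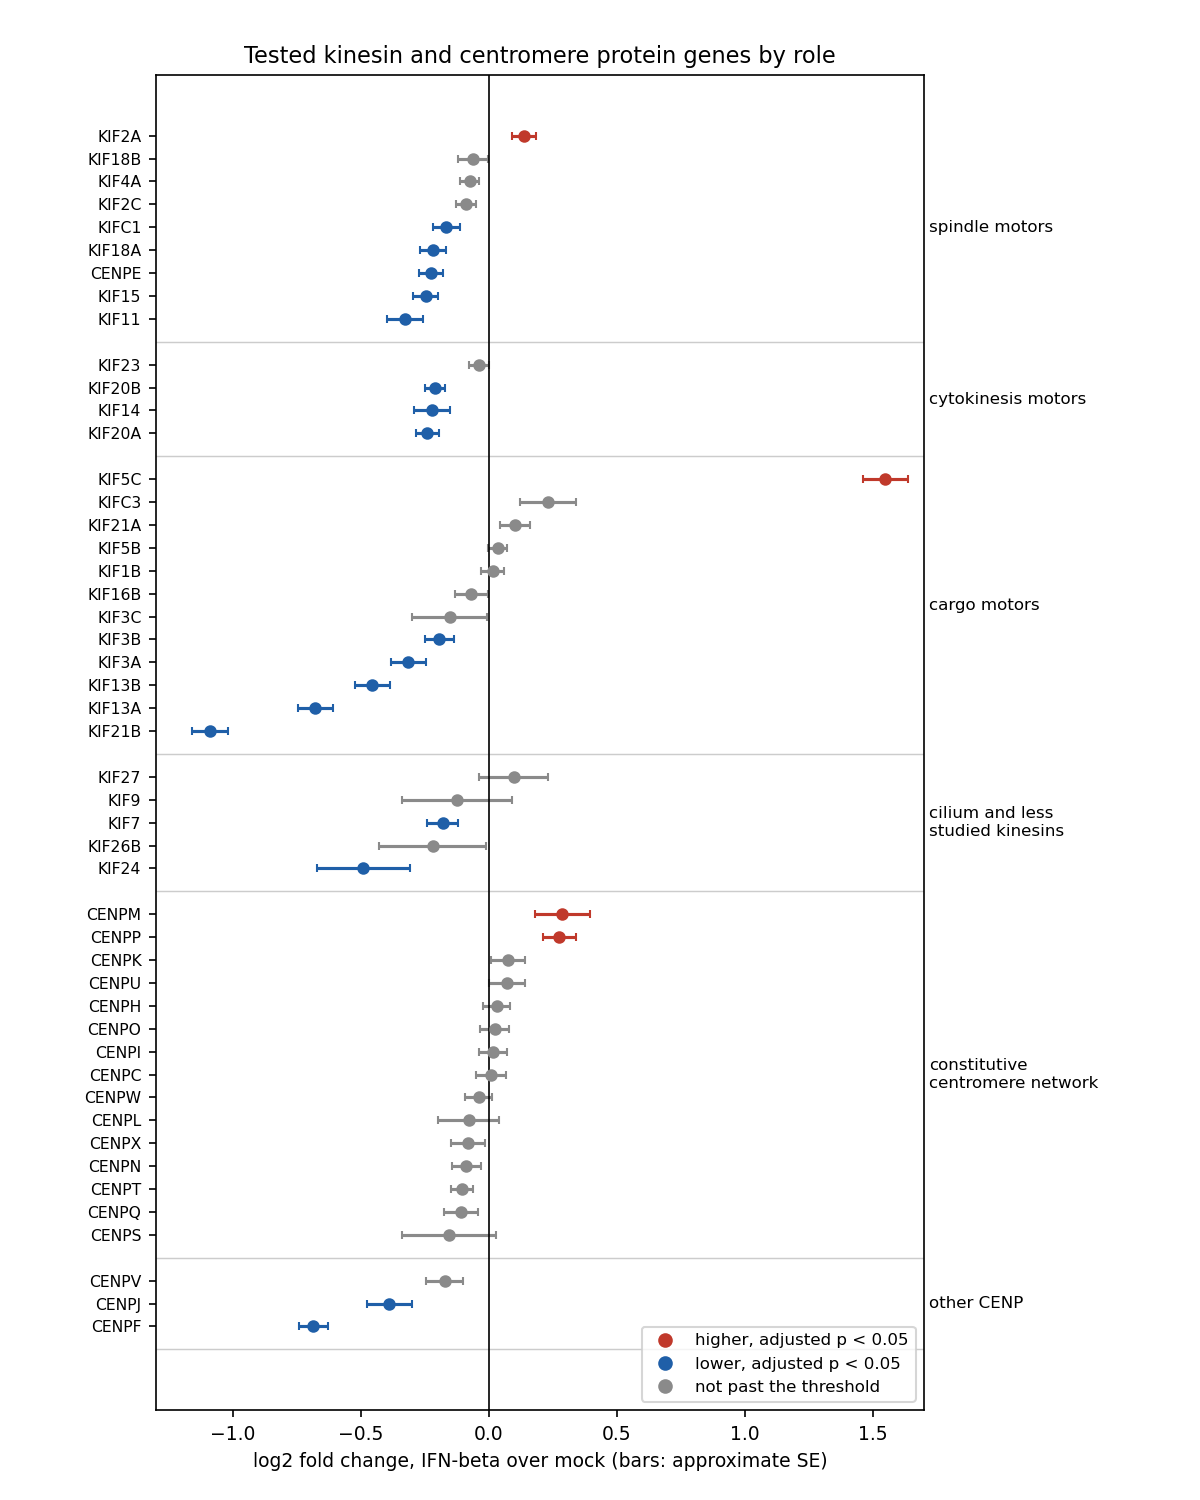
Log2 fold change of IFN-beta over mock for each of the 48 tested genes, grouped by role, with bars for the approximate SE and TMM scaling. KIF5C lies far to the right at 1.55 and KIF21B far to the left at -1.09, while the constitutive centromere network lies around 0; with library size alone the whole set lies about 0.09 further left.

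The clearest change was an increase of KIF5C, a heavy chain of kinesin-1, the motor that carries mitochondria and vesicles toward the cell edge. KIF5C stood at 12.5, 12.4 and 12.1 CPM in the mock libraries and at 39.2, 37.9 and 31.1 CPM in the IFN-beta libraries. The groups lay far apart, with the lowest IFN-beta library well above all mock libraries. KIF5C rose 2.92-fold, a log2 fold change of 1.55 (SE 0.09, adjusted p 1.3e-11 with edgeR). In mammals KIF5C is known mainly from neurons, while KIF5B is the heavy chain found in most cell types.

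KIF5B did not pass. Its levels were 276, 268 and 259 CPM in mock and 281, 267 and 274 CPM in IFN-beta, with overlapping groups (log2 fold change 0.03, SE 0.04, edgeR adjusted p 0.48). Its sign turned negative with library size alone (-0.06) and on log2(TPM + 1) (-0.09), where it did not pass either. Per length KIF5B was far more abundant than KIF5C, at 73.0 ± 4.59 against 2.52 ± 0.0896 TPM in mock and 68.5 ± 3.14 against 6.82 ± 0.942 TPM in IFN-beta. KIF5C made up 3.24 to 3.44% of the summed TPM of both heavy chains in the mock libraries and 7.91 to 9.71% in the IFN-beta libraries. The light chain gene KLC1, whose product binds cargo for kinesin-1, rose from 148 ± 7.92 to 177 ± 1.62 CPM (log2 fold change 0.25, SE 0.04, edgeR adjusted p 4.0e-05). In TPM KLC1 went from 37.7 ± 3.40 in mock to 41.7 ± 0.675 in IFN-beta. KIF5C shared a few reads with its neighbour LYPD6B, which had at most 4.37 counts in a library, against 475 to 604 of KIF5C in IFN-beta. Its other neighbour EPC2 had a log2 fold change of -0.03 and did not pass (edgeR adjusted p 0.74).

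The largest decrease was that of KIF21B, a motor that also limits microtubule growth and is known in mammals from neurons and lymphocytes. It stood at 48.1, 50.2 and 43.7 CPM in mock and at 24.1, 22.5 and 20.1 CPM in IFN-beta. All IFN-beta libraries lay far below all mock libraries, and the gene fell 2.13-fold (log2 fold change -1.09, SE 0.07, adjusted p 1.1e-10 with edgeR). Its paralogue KIF21A did not pass, with 59.6, 52.1 and 51.5 CPM in mock and 57.1, 58.5 and 59.6 CPM in IFN-beta (log2 fold change 0.10, SE 0.06, adjusted p 0.16), and its sign was negative on log2(TPM + 1), at -0.01. Without mock replicate 1, its highest mock library, KIF21A was called higher (log2 fold change 0.17, edgeR adjusted p 0.015). In TPM the ratio of KIF21A to KIF21B was 1.51 to 1.80 in mock libraries and 3.45 to 4.32 in IFN-beta libraries. Of the genes next to KIF21B, CACNA1S was also lower (log2 fold change -0.49, edgeR adjusted p 0.018) and ELF3 was higher, from 5 reads summed over the mock libraries to 105 over the IFN-beta libraries (edgeR adjusted p 1.6e-08).

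Both members of the kinesin-3 pair KIF13A and KIF13B were lower. KIF13A, which moves recycling endosomes and melanosomes in mammals, stood at 35.0, 32.1 and 32.8 CPM in mock and at 21.6, 21.6 and 19.2 CPM in IFN-beta. It fell 1.60-fold (log2 fold change -0.68, SE 0.07, edgeR adjusted p 9.5e-08). KIF13B, a motor for membrane-associated scaffold proteins, stood at 34.7, 35.4 and 31.3 CPM in mock and at 25.3, 23.0 and 25.8 CPM in IFN-beta. It fell 1.37-fold (log2 fold change -0.45, SE 0.07, edgeR adjusted p 1.6e-05). The groups did not overlap for either gene. KIF13A shared reads with the neighbouring gene SIRT5, which did not pass (log2 fold change -0.05, edgeR adjusted p 0.67).

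KIF3A and KIF3B encode the motor chains of heterotrimeric kinesin-2, which builds cilia and carries cargo in the cytoplasm, and both were lower. KIF3A stood at 27.3, 30.0 and 27.2 CPM in mock and at 21.6, 23.2 and 23.2 CPM in IFN-beta (log2 fold change -0.31, SE 0.07, edgeR adjusted p 0.00085). KIF3B stood at 39.1, 38.6 and 36.0 CPM in mock and at 33.5, 33.2 and 32.8 CPM in IFN-beta (log2 fold change -0.19, SE 0.06, edgeR adjusted p 0.0078), and it did not pass with DESeq2 (adjusted p 0.052). In both genes each IFN-beta library lay below each mock library. KIFAP3, the subunit that joins cargo to this motor, did not pass, with 12.1 ± 0.798 CPM in mock and 10.5 ± 0.158 CPM in IFN-beta (adjusted p 0.070). KIF3C, the alternative partner of KIF3A, was less abundant, at 1.12 ± 0.126 TPM in mock, and did not pass (adjusted p 0.42).

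The other cargo motors did not pass. KIF1B, a carrier of mitochondria and synaptic vesicle precursors in mammals, stood at 185, 182 and 169.8 CPM in mock and at 192, 179.8 and 170.4 CPM in IFN-beta. These ranges overlapped almost fully (log2 fold change 0.02, SE 0.04, edgeR adjusted p 0.80), and the sign was negative with library size alone (-0.08) and on log2(TPM + 1) (-0.08). KIF16B, a motor of early endosomes, was at 24.3 ± 0.203 CPM in mock and 23.2 ± 0.635 CPM in IFN-beta (log2 fold change -0.07, SE 0.07, adjusted p 0.43), and was called lower with library size alone and on log2(TPM + 1). The minus-end motor listed as KIFC3, which the RefSeq table names KIFC2, was at 7.19 ± 0.604 and 8.45 ± 0.710 CPM (log2 fold change 0.23, SE 0.11, adjusted p 0.093). In all, 5 of 12 tested cargo motors were lower, 1 was higher and 6 did not pass, against 22.4% lower and 24.3% higher of all tested genes. With library size alone and on log2(TPM + 1) 6 were lower and 1 higher, where 36.1% and 35.5% of all tested genes were lower.

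**Figure D2:**
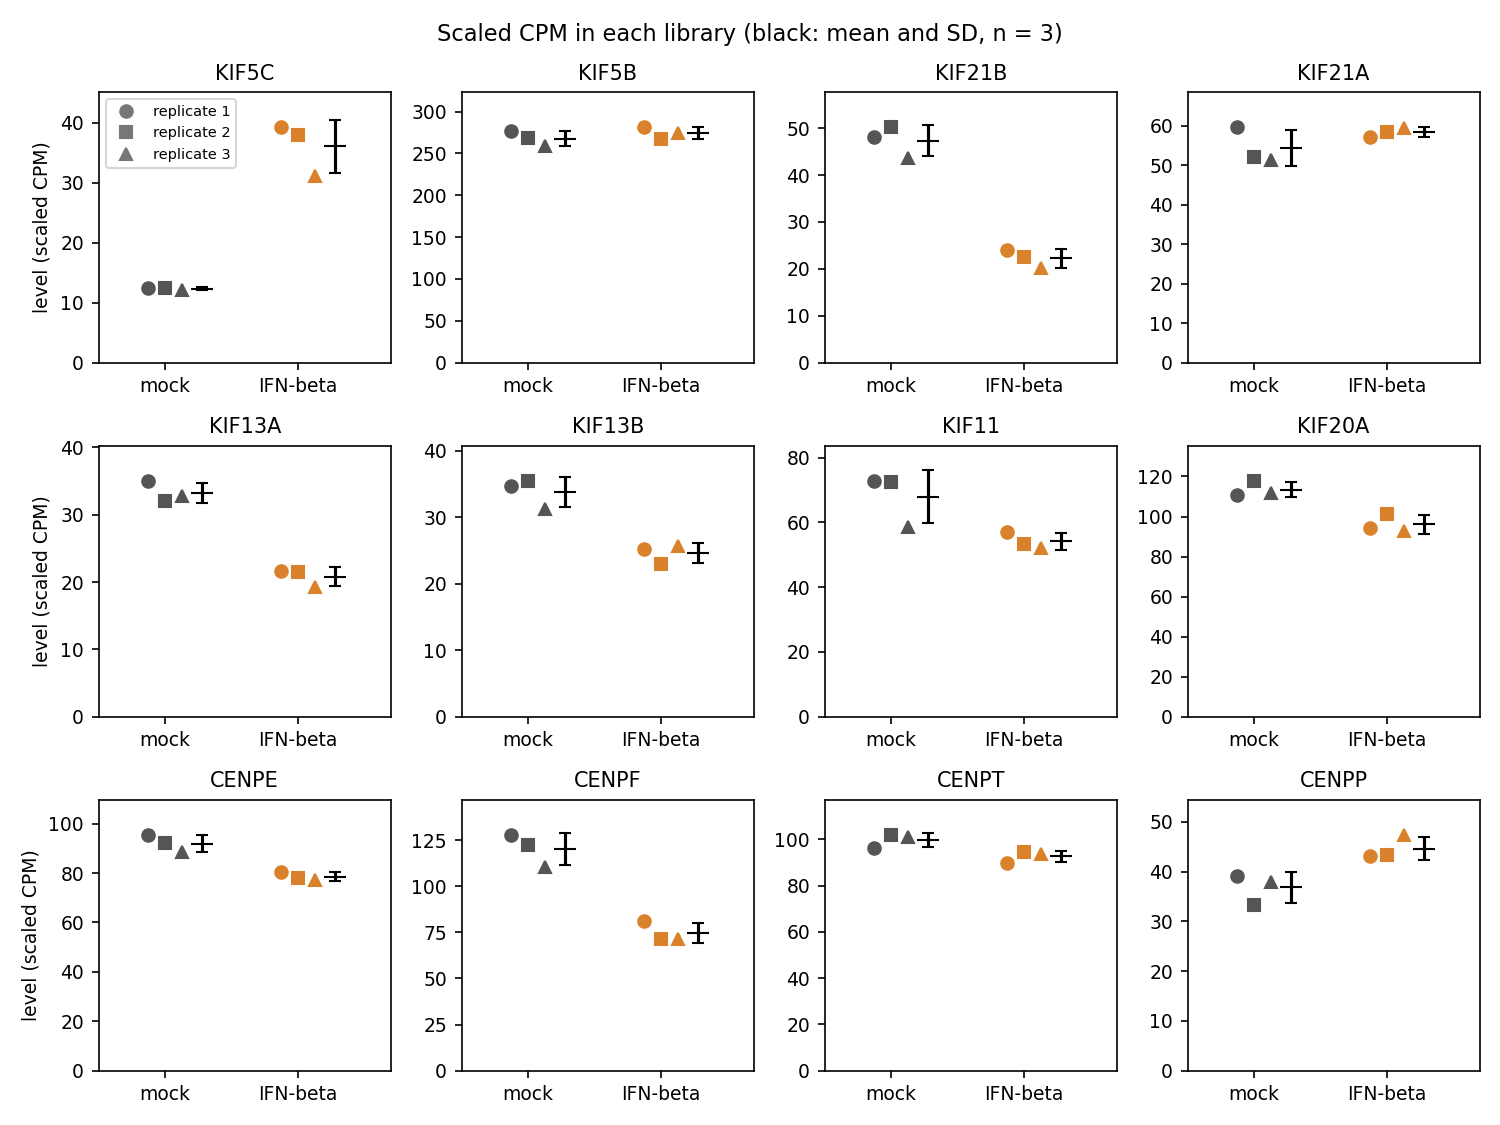
Scaled CPM of 12 genes in each library, with the vertical axis from 0, a marker for each replicate and black bars for the mean and SD of 3 libraries. The groups are separate for KIF5C, KIF21B, KIF13A, KIF13B, KIF11, KIF20A, CENPE, CENPF, CENPT and CENPP and overlap for KIF5B and KIF21A.

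Of the 9 motors of spindle assembly and chromosome movement, 5 were lower, 1 was higher and 3 did not pass. Of all tested genes 22.4% were lower and 24.3% higher. With library size alone and on log2(TPM + 1) 8 of 9 were lower and none higher, where 36.1% and 35.5% of all tested genes were lower. With TMM factors the median log2 fold change of the 9 motors was -0.17. KIF11, the kinesin-5 that pushes spindle poles apart, stood at 72.7, 72.6 and 58.6 CPM in mock and at 57.2, 53.3 and 52.1 CPM in IFN-beta. Mock replicate 3 was well below the other two and close to the highest IFN-beta library, yet the groups did not overlap. KIF11 fell 1.25-fold (log2 fold change -0.33, SE 0.07, adjusted p 0.00073 with edgeR). KIF15, a kinesin that can stand in for KIF11, stood at 111, 103 and 99.9 CPM in mock and at 92.7, 84.9 and 86.8 CPM in IFN-beta (log2 fold change -0.25, SE 0.05, edgeR adjusted p 0.00038).

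CENPE is both a kinesin and a CENP protein, and it moves chromosomes to the middle of the spindle. Its levels were 95.3, 92.1 and 88.4 CPM in mock and 80.4, 78.0 and 77.3 CPM in IFN-beta, again with no overlap. CENPE fell 1.17-fold (log2 fold change -0.23, SE 0.05, edgeR adjusted p 0.00041). KIF18A, which damps the swinging of aligned chromosomes, stood at 54.8, 56.8 and 54.2 CPM in mock and at 47.5, 46.1 and 48.8 CPM in IFN-beta, and fell 1.16-fold (-0.22, SE 0.05, adjusted p 0.0015).

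KIFC1, a minus-end motor that bundles spindle microtubules, went from 66.4 ± 3.43 to 59.2 ± 2.61 CPM (log2 fold change -0.17, SE 0.05, edgeR adjusted p 0.015). Its counts were not whole in any library, and their sum with those of KIFC1L was whole in each, so the 2 genes divided reads. With both added together the log2 fold change was -0.15 (adjusted p 0.0087). KIFC1 did not pass without mock replicate 2 (adjusted p 0.085) or without IFN-beta replicate 1 (0.073) or 3 (0.057).

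KIF2A and KIF2C belong to the kinesin-13 family, which removes tubulin from microtubule ends and does not walk. KIF2A stood at 80.0, 75.3 and 72.4 CPM in mock and at 82.6, 82.9 and 85.1 CPM in IFN-beta, and it rose 1.10-fold with TMM factors (log2 fold change 0.14, SE 0.05, edgeR adjusted p 0.022). That call was lost with library size alone (log2 fold change 0.05, adjusted p 0.43), on log2(TPM + 1) (0.02, adjusted p 0.76), with DESeq2 (adjusted p 0.059), and without mock replicate 2 (0.056) or 3 (0.075) or IFN-beta replicate 2 (0.052) or 3 (0.080). KIF2C, the form at mitotic centromeres, did not pass, with 108, 106 and 108 CPM in mock and 101, 100.1 and 102 CPM in IFN-beta (log2 fold change -0.09, SE 0.04, adjusted p 0.077). It was called lower with library size alone and on log2(TPM + 1). The same held for the chromosome arm motor listed as KIF4A, which RefSeq names KIF4B, at 286 ± 7.43 and 272 ± 9.93 CPM (-0.07, SE 0.04, adjusted p 0.11), and for KIF18B, at 31.5 ± 1.07 and 30.2 ± 0.104 CPM (-0.06, SE 0.06, adjusted p 0.41).

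Of the 4 motors of cytokinesis, the final division of the cell body, 3 were lower and none higher, against 22.4% and 24.3% of all tested genes. All 4 were lower with library size alone and on log2(TPM + 1), against the same 36.1% and 35.5% of all tested genes. KIF20A, which brings the chromosomal passenger complex to the middle of the spindle, stood at 111, 118 and 112 CPM in mock and at 94.0, 101 and 92.8 CPM in IFN-beta. The groups did not overlap (log2 fold change -0.24, SE 0.04, edgeR adjusted p 0.00021). It shared reads with SFXN1, which did not pass (log2 fold change 0.03, adjusted p 0.61). KIF20B, a motor of late cytokinesis, went from 130.2 ± 3.89 to 113 ± 1.94 CPM (-0.21, SE 0.04, adjusted p 0.00023).

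KIF14, which binds the citron kinase CIT at the cleavage furrow, went from 32.5 ± 3.28 to 27.8 ± 0.745 CPM (log2 fold change -0.22, SE 0.07, edgeR adjusted p 0.014). Its mock values were 36.2, 31.1 and 30.1 CPM, and without mock replicate 1 it did not pass (log2 fold change -0.14, adjusted p 0.12), nor with DESeq2 (0.051). KIF23, a subunit of centralspindlin, did not pass, with 138, 129 and 134 CPM in mock and 130.2, 130.0 and 129 CPM in IFN-beta (-0.04, SE 0.04, adjusted p 0.43).

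The kinesins of cilia and the less studied ones were mostly rare. KIF24, which restrains the growth of cilia in human cells, was at 3.40, 3.50 and 2.72 CPM in mock and at 1.88, 2.61 and 2.35 CPM in IFN-beta. It fell 1.40-fold (log2 fold change -0.49, SE 0.18, edgeR adjusted p 0.034) on 156 and 105 reads, and it did not pass with DESeq2 (adjusted p 0.18) or without mock replicate 1 (0.095) or 2 (0.13) or IFN-beta replicate 1 (0.16) or 3 (0.067). KIF7, a regulator of Hedgehog signalling at the cilium tip, went from 44.3 ± 3.05 to 39.1 ± 1.46 CPM (log2 fold change -0.18, SE 0.06, edgeR adjusted p 0.017). KIF7 did not pass with DESeq2 (adjusted p 0.065) or without mock replicate 2 (0.17) or IFN-beta replicate 2 (0.057) or 3 (0.081). KIF9, KIF26B and KIF27 did not pass, with 1.85 to 7.41 CPM as group means.

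Of the 7 genes removed by the filter, 6 were kinesins with few reads. KIF17 had 17 reads in mock, 13 of them in replicate 1, and 5 in IFN-beta. KIF12 had 3 reads in mock and 1 in IFN-beta, and KIF25 had 2 in each group. KIF1A and KIF6 had no read in mock and 1 in IFN-beta, and KIF26A none and 3, so no fold is given for them. With no filter none of these 6 genes passed (edgeR adjusted p 0.18 to 0.98, Benjamini-Hochberg).

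CENPA was also removed by the filter, with 10, 8 and 14 reads in the mock libraries and 7, 7 and 8 in the IFN-beta libraries. Per length it was at 12.0 ± 2.94 TPM in mock and 8.17 ± 0.348 TPM in IFN-beta, values that rest on these few reads. Its model in the deposited tables was short: its counts per TPM were 0.0288 times those of the median tested gene. With no filter the log2 fold change was -0.45 (SE 0.39, edgeR adjusted p 0.43), so at this depth no difference was detectable.

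With TMM factors 22.4% of all tested genes were lower and 24.3% higher. Of the 15 tested genes of the constitutive centromere network, none was lower, 2 were higher and 13 did not pass. The median log2 fold change was 0.01, near that of all tested genes, and the range was -0.16 to 0.29. With library size alone 5 were lower and 1 higher (median -0.08), against 36.1% and 15.6% of all tested genes. On log2(TPM + 1) 4 of 16 were lower and none higher (median -0.13), against 35.5% and 12.8%. The 16 included CENPA, which was among the 4 lower although the count filter had removed it for its few reads. Per length this group held the most abundant gene described here, CENPX, at 169 ± 6.13 TPM in mock and 148 ± 9.36 TPM in IFN-beta, followed within the network by CENPW at 83.0 ± 0.801 and 74.7 ± 3.86 TPM. Both encode histone fold proteins, CENPX with CENPS and CENPW with CENPT. CENPX and CENPW did not pass with TMM factors (edgeR adjusted p 0.33 and 0.58). They were called lower with library size alone and on log2(TPM + 1).

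CENPC, which binds CENPA nucleosomes and recruits the rest of the network, stood at 34.4, 32.7 and 31.9 CPM in mock and at 31.6, 33.9 and 34.1 CPM in IFN-beta. The groups overlapped fully (log2 fold change 0.01, SE 0.06, edgeR adjusted p 0.92), and the sign was negative with library size alone (-0.08) and on log2(TPM + 1) (-0.10). CENPT, which reaches from the centromere to the NDC80 complex, was at 96.4, 102 and 101 CPM in mock and at 89.7, 94.6 and 93.6 CPM in IFN-beta. The groups did not overlap, but CENPT did not pass (log2 fold change -0.11, SE 0.04, adjusted p 0.052). It was called lower with DESeq2 size factors in edgeR, with upper quartile factors, with library size alone, on TPM, with a mean of at least 1 CPM, with the replicate block and without mock replicate 1.

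CENPP rose from 39.2, 33.3 and 38.0 CPM in mock to 43.2, 43.3 and 47.3 CPM in IFN-beta, a log2 fold change of 0.28 (SE 0.06, edgeR adjusted p 0.0014). Its TPM was 40.1 ± 4.14 in mock and 40.7 ± 2.42 in IFN-beta, so on log2(TPM + 1) it did not pass (0.03, adjusted p 0.81). It divided reads with the neighbouring gene IPPK, which rose (log2 fold change 0.39). CENPM rose from 7.54, 6.32 and 6.79 CPM to 8.64, 8.14 and 8.44 CPM (log2 fold change 0.29, SE 0.11, edgeR adjusted p 0.034). The groups did not overlap for either gene in CPM. CENPM lost the call with library size alone (adjusted p 0.13), upper quartile factors (0.086), DESeq2 (0.19) and TPM (0.19 to 0.28), and without mock replicate 2 or 3 or any of the IFN-beta replicates (0.051 to 0.13).

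Apart from CENPE, described above, the 3 proteins named CENP that are outside the network had lower values. CENPF, a large protein of the nuclear envelope and outer kinetochore that accumulates in the later cell cycle, stood at 128, 123 and 110.3 CPM in mock and at 81.0, 71.6 and 71.6 CPM in IFN-beta. The groups were far apart, and CENPF fell 1.61-fold (log2 fold change -0.69, SE 0.06, adjusted p 5.5e-09 with edgeR). CENPJ, a protein that sets centriole length, stood at 18.1, 19.8 and 16.5 CPM in mock and at 13.6, 14.6 and 13.4 CPM in IFN-beta, and fell 1.31-fold (-0.39, SE 0.09, adjusted p 0.0012). CENPV did not pass, at 24.4 ± 1.82 and 21.7 ± 0.862 CPM (-0.17, SE 0.07, adjusted p 0.062), and it was called lower with library size alone, on log2(TPM + 1) and without mock replicate 1 (adjusted p 0.042).

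The lower genes whose call held under all 17 alternatives were KIF21B, KIF13A, KIF13B, KIF3A, KIF11, KIF15, KIF18A, CENPE, KIF20A, KIF20B, CENPF and CENPJ. In CPM, 24 of the 48 tested genes had all IFN-beta libraries below all mock libraries and 4 had them above, against 26.3% and 27.5% of all tested genes. In the authors' deposited table, 13 of the 55 genes were lower and 2 higher at an adjusted p under 0.05, against 12.3% and 14.8% of the 14879 genes with an adjusted p in the authors' deposited table. The authors' deposited table does not call KIF2A, CENPM, KIF14, KIF3B, KIF7 and KIF24, with adjusted p of 0.061 to 0.23.

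**Figure D3:**
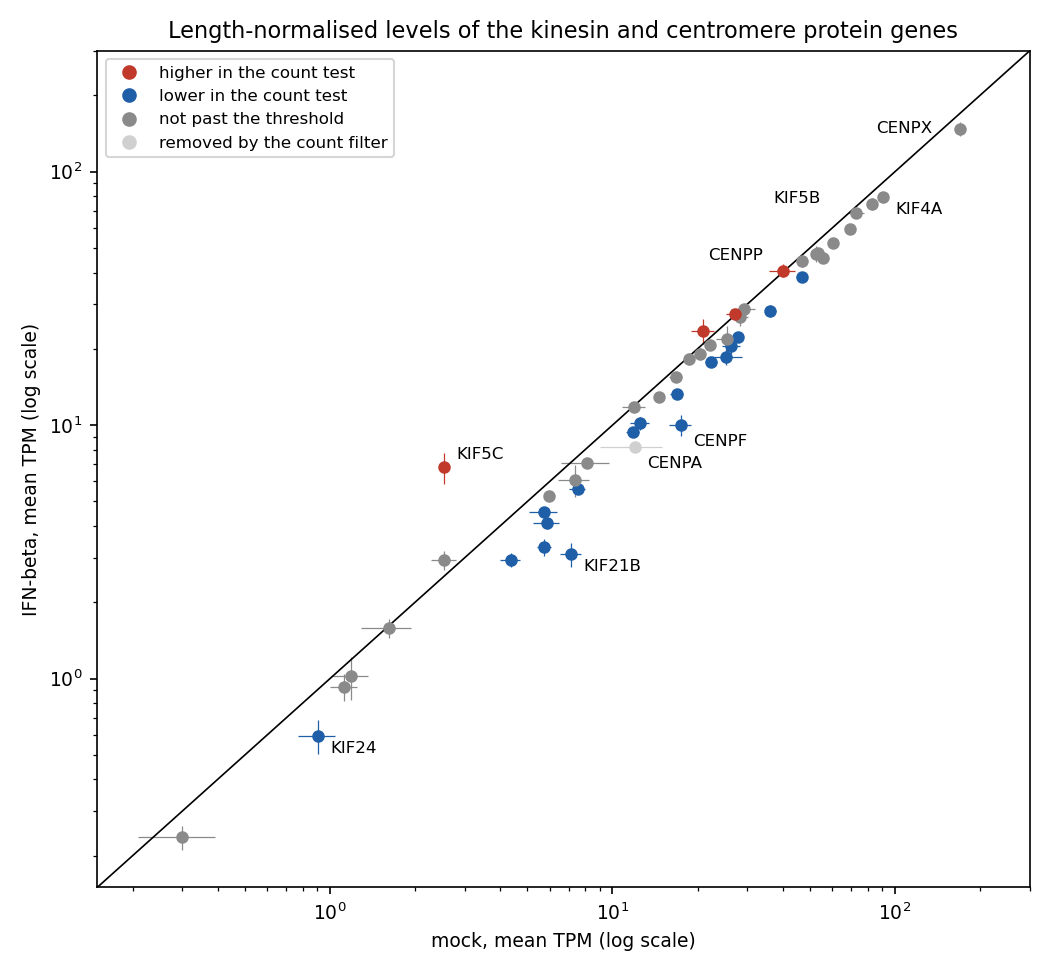
Mean TPM in IFN-beta against mock on log scales, with bars for the SD of 3 libraries and a line of equality, for the 49 genes with at least 0.2 TPM in both groups. KIF5C, at 2.52 and 6.82 TPM, is well above the line, KIF21B, at 7.14 and 3.10 TPM, is well below it, and most genes lie slightly below it. Over all tested genes the median log2 fold change on log2(TPM + 1) was also negative, at -0.10.

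Levels per length spanned a wide range. After CENPX, the most abundant genes in mock were KIF4A at 90.4 ± 3.45 TPM, CENPW, KIF5B at 73.0 ± 4.59 TPM and CENPT at 69.1 ± 1.99 TPM. KIF5B and CENPT did not differ beyond their spread in mock. The median of the tested genes was 19.6 TPM in mock, against 17.6 TPM over all tested genes. Summed over the 9 spindle motors the TPM was 316 to 339 in mock libraries and 272 to 288 in IFN-beta libraries, and over the centromere network it was 632 to 652 and 576 to 588. In TPM the bulk of genes was also lower, with a median log2 fold change of -0.10 over all tested genes on log2(TPM + 1).

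Markers of dividing cells went in different directions. Of 5 listed, MKI67 fell from 337 ± 22.4 to 257 ± 7.52 CPM (log2 fold change -0.39, SE 0.04, edgeR adjusted p 3.7e-07) and TOP2A from 474 ± 30.3 to 422 ± 16.9 CPM (-0.17), CCNB2 rose from 246 ± 1.91 to 268 ± 7.04 CPM (0.12), and PCNA and CDK1 did not pass. CCNB2 did not pass with library size alone or on log2(TPM + 1), where 3 of the 5 fell and none rose, with 36.1% and 35.5% of all tested genes lower. Their summed level was 1298 to 1387 TPM in mock libraries and 1227 to 1250 TPM in IFN-beta libraries. The median log2 fold change of all tested genes on log2(TPM + 1) was -0.10. The part of these markers in the lower values of the mitotic kinesins was not tested.

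Partners of these proteins were described from lists, with TMM factors unless stated, where 22.4% of all tested genes were lower and 24.3% higher. Of 21 tested genes of the outer kinetochore and spindle checkpoint, 6 were lower, 3 higher and 12 did not pass, with a median log2 fold change of -0.03. The checkpoint kinase BUB1 fell from 158 ± 3.68 to 135 ± 2.79 CPM and its relative BUB1B, a partner of CENPE at kinetochores, from 178 ± 5.65 to 145 ± 2.79 CPM, while NDC80, the microtubule-binding subunit that CENPT recruits, rose from 70.5 ± 3.32 to 97.5 ± 1.74 CPM (log2 fold change 0.47, SE 0.05, edgeR adjusted p 7.8e-08). With library size alone 11 were lower and 1 higher, against 36.1% and 15.6% of all tested genes.

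Of 12 tested genes listed as passenger complex and cytokinesis partners, 8 were lower and none higher (median -0.13), against 22.4% and 24.3% of all tested genes. The 12 included other mitotic genes, AURKA and NEK2, which did not pass, and SGO1 and TPX2, which were lower. With library size alone and on log2(TPM + 1) 10 were lower and none higher, where 36.1% and 35.5% of all tested genes were lower. INCENP, the scaffold of the passenger complex that KIF20A carries, fell from 228 ± 5.15 to 191 ± 7.35 CPM, CIT, the partner of KIF14, from 34.5 ± 2.76 to 25.6 ± 0.484 CPM, and TPX2, a spindle assembly factor, from 397 ± 8.55 to 349.8 ± 3.09 CPM. Among the 5 tested genes of CENPA loading, HJURP, the chaperone of CENPA, fell from 60.0 ± 1.83 to 53.6 ± 1.55 CPM. OIP5 fell from 6.49 ± 0.305 to 4.95 ± 0.929 CPM (edgeR adjusted p 0.022), but did not pass with DESeq2 (adjusted p 0.12). The others did not pass with TMM factors (list median -0.03). With library size alone 2 of the 5 were lower and on log2(TPM + 1) 4 were, against 36.1% and 35.5% of all tested genes.

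Of 18 tested regulators of the mitotic gene programme, 5 were lower, 3 higher and 10 did not pass (median -0.06). FOXM1, a transcription factor that drives genes such as CENPF in mammals, fell from 31.0 ± 2.15 to 20.7 ± 0.403 CPM (log2 fold change -0.58, SE 0.07, edgeR adjusted p 9.8e-07) and the repressor E2F8 from 86.5 ± 1.65 to 70.2 ± 0.422 CPM, while E2F3 rose from 37.0 ± 0.848 to 48.9 ± 1.75 CPM. With library size alone 10 were lower and 1 higher, against 36.1% and 15.6% of all tested genes.

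Of 13 tested kinesin light chains and adaptors, 2 were higher and 4 lower (median -0.11), which became 2 and 9 with library size alone, where 15.6% of all tested genes were higher and 36.1% lower. On log2(TPM + 1) 1 was higher and 7 were lower, against 12.8% and 35.5% of all tested genes. Besides KLC1, RHOT1, the mitochondrial GTPase to which kinesin-1 is linked, rose from 116 ± 6.61 to 144 ± 3.89 CPM (log2 fold change 0.31). Dynein, the motor that walks the opposite way, and its activator dynactin had 8 higher and 1 lower of 26 tested genes (median 0.08), but 4 higher and 7 lower with library size alone (median -0.02), against 15.6% and 36.1% of all tested genes. NDEL1, a regulator of dynein, rose from 27.8 ± 0.878 to 45.7 ± 1.66 CPM (0.72), the light intermediate chain DYNC1LI2 from 33.5 ± 1.41 to 46.3 ± 2.41 CPM (0.47), and DCTN4 fell from 90.1 ± 1.93 to 75.1 ± 2.87 CPM (-0.26). The counts of DYNC1LI2 were not whole, and in TPM it rose less, from 19.9 ± 1.64 to 22.2 ± 0.217.

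**Figure D4:**
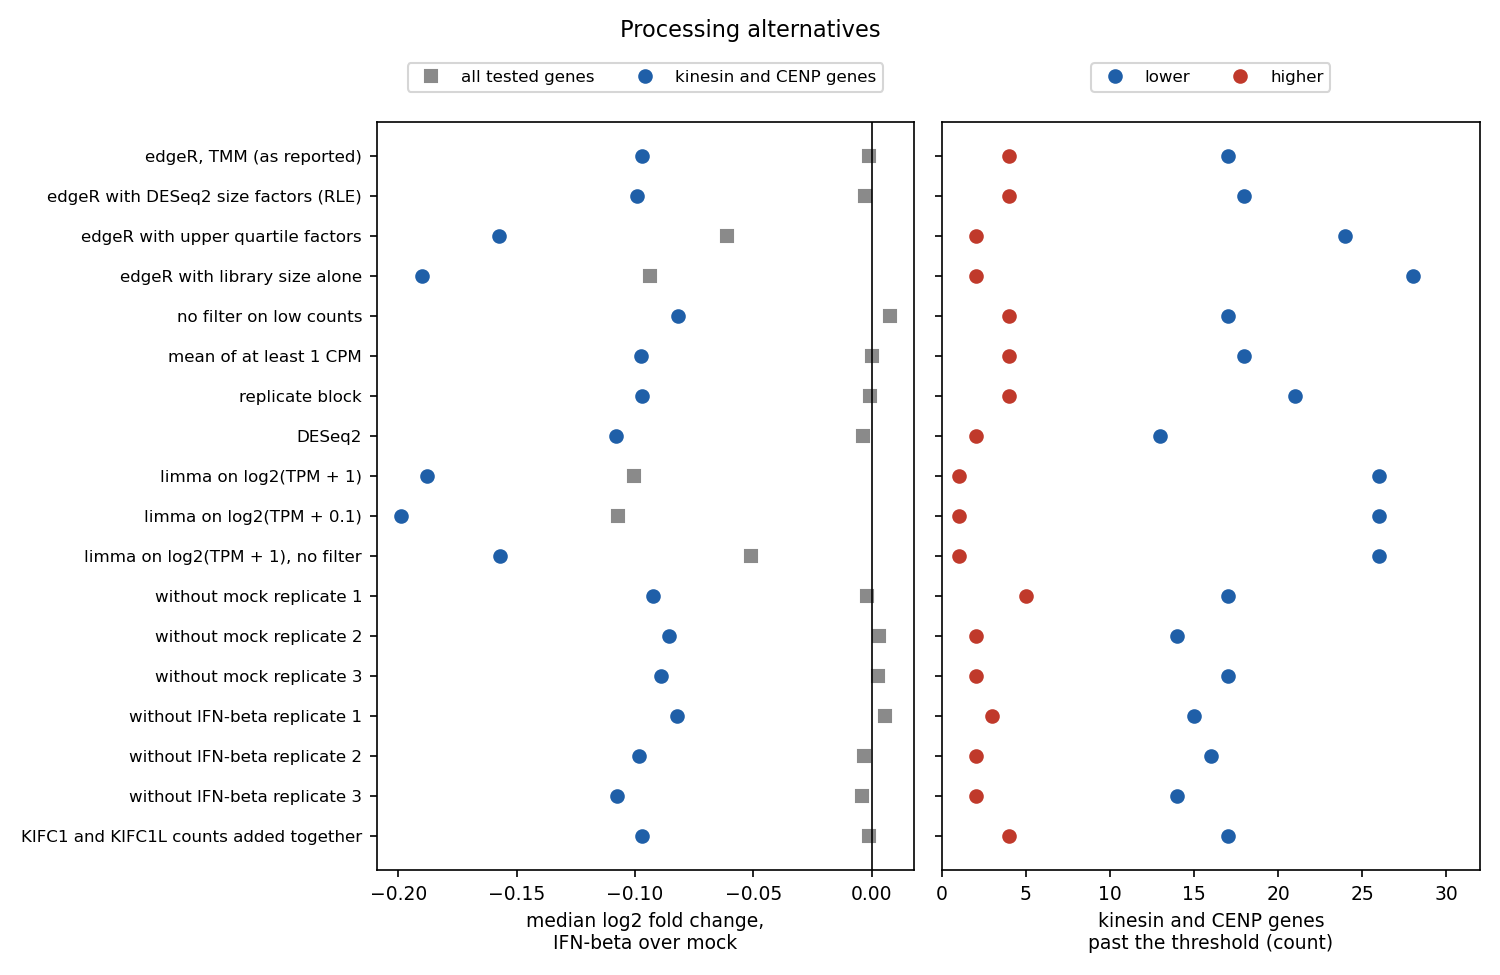
Median log2 fold change of the kinesin and CENP genes and of all tested genes (left) and the number of kinesin and CENP genes past the threshold in each direction (right), for the reported fit and each alternative. Both medians shift together, to -0.19 and -0.09 with library size alone, while the number lower ranges from 13 to 28 and the number higher from 1 to 5.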

How the data were processed

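The authors deposited gene-level read numbers, used here under the unit of expected counts: 2277 of 14903 genes were fractional somewhere, beyond a tolerance of 0.015. The authors also deposited TPM for these genes, and, per the file headers, results of a comparison of their own (log2 fold change, p-value, adjusted p-value). GRCg6a and DESeq2 are named in the submitters' processing notes. Aligner, counter, annotation and strandedness were not given in the sources used here.

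After rounding, counts went into edgeR 4.0.16 (R 4.3.3). Default filterByExpr kept 11091 genes and left 3812 untested. TMM factors ran from 1.03 to 1.04 for mock and from 0.963 to 0.973 for IFN-beta. The quasi-likelihood test (glmQLFit, glmQLFTest) had the group as its sole term, p-values were adjusted by Benjamini-Hochberg over every tested gene, and the threshold was 0.05. Each SE was approximated from the size of the log2 fold change divided by the root of F. The procedure was also run on simulated data with few changed genes, as many up as down, which does not test its dependence on scaling. Alternatives were DESeq2 1.42.0, other scalings and filters, a replicate block, limma 3.58.1 on TPM as log2(TPM + 1), with genes of mean 1 TPM or more or unfiltered, or as log2(TPM + 0.1), omission of each library, and, added after seeing the data, KIFC1 and KIFC1L summed.

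Genes, lists and roles were chosen with earlier results of these data known. Library values are printed for 23 genes: 13 always reported, and, of called genes reaching 1 CPM in the higher group, the 8 with the lowest log2 fold change and up to 8 with the highest, which were 4. Values of further genes, KIFAP3 included, were added once seen. Up to 3 called genes per list are named, by smallest adjusted p; 1 result under this rule is not reported here. All 55 identifiers were in RefSeq's GRCg7b table, 53 under the same symbol, and it served for names and neighbours only. Sequences and promoter motifs were not analysed here. Libraries within a group differed beyond sampling noise (chi-square 1.67 to 4.48 times its degrees of freedom), so each counted as 1 replicate. Reads were taken as shared where a fractional gene and a partner summed to whole numbers in all 6 libraries within 0.03.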

Additional observations from a re-analysis of the deposited data

How the results depend on the processing

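Of the 21 called genes, 20 kept their sign under all 17 alternatives and KIF24 under the 15 that tested it. Of these, 13 also kept their call in all 17, and for the others the cause was not tested. The same was not counted over all genes. The number of lower genes, 17, was 24 with upper quartile factors, 28 with library size alone and 26 in each of the 3 fits on TPM. It was 13 with DESeq2 and 14 to 17 without single libraries. Of all tested genes 30.3% were lower with upper quartile factors, 36.1% with library size alone, 24.0% to 35.5% on TPM and 15.4% with DESeq2, against 22.4% as reported. The number of higher genes, 4, was 2 with upper quartile factors, library size alone and DESeq2, 1 in each fit on TPM, and 2 to 5 without single libraries. Of all 11091 tested genes 2697 were higher as reported, 2020 with upper quartile factors and 1734 with library size alone. With DESeq2 2273 of 12293 were higher, and on TPM 1272 to 1363 of 10156 to 14897. Without single libraries 2338 to 2808 of all tested genes were higher, and 17.9% to 23.4% were lower. The median log2 fold change of the tested kinesin and CENP genes, -0.10, was -0.16 with upper quartile factors and -0.19 with library size alone. It was -0.19 on log2(TPM + 1), -0.20 on log2(TPM + 0.1) and -0.16 on log2(TPM + 1) with no filter. Without single libraries it was -0.11 to -0.08. The median of all tested genes was -0.06 with upper quartile factors, where scaling moves all genes by nearly the same amount. The number of all genes called, 5177, was 4353 to 5430 without single libraries; the share of these calls that were lower was 47.9%, and 62.4%, 69.8% and 73.5% with upper quartile factors, library size alone and on log2(TPM + 1).

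Of the 27 tested genes that did not pass, 12 changed sign under some alternative. Among those described here, with upper quartile factors, library size alone, log2(TPM + 1), log2(TPM + 0.1) and log2(TPM + 1) with no filter, CENPC was at -0.051, -0.084, -0.10, -0.11 and -0.10, KIF1B at -0.044, -0.077, -0.085, -0.087 and -0.085, and KIF5B at -0.026, -0.058, -0.090, -0.091 and -0.090. KIF21A was at -0.011, -0.012 and -0.011 in the 3 fits on TPM, and at 0.17 and called higher without mock replicate 1. Without single libraries CENPC ranged from -0.015 to 0.048 and KIF1B from -0.025 to 0.057.

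The replicate numbers share only a number: deviations of same-numbered libraries correlated at 0.07 to 0.08 and each library correlated best with its own number, as a hint from the data, not the design. With the replicate block 21 genes were lower and 4 higher, and KIF4A, KIF2C, CENPT and CENPV were added to the lower ones. Calls also rose over all 11091 tested genes. There 25.2% were lower and 3077 genes higher with the block, against 22.4% and 2697 as reported. An exact permutation test of 3 against 3 libraries cannot give a p under 0.1. Reads limit what can be seen for genes such as CENPA and KIF17.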

Other observations

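In 10 of the 55 genes the deposited counts were not whole, and in each a single partner gene made the sum whole in all 6 libraries. For 8 of them the partner was another gene and not a relative: ATMIN for CENPN, ADCY3 for CENPO, IPPK for CENPP, PRIMPOL for CENPU, SIRT5 for KIF13A, SFXN1 for KIF20A, SMYD3 for KIF26B and LYPD6B for KIF5C. For KIFC1 and KIF20B it was the relatives KIFC1L and KIF20BL. KIFC1L, left out by its symbol, fell (log2 fold change -0.14, edgeR adjusted p 0.022), KIF20BL had 1.01 to 3.03 counts in a library, and KIF20AL and KIF28P did not pass (adjusted p 0.39 and 0.079).

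Among the tested kinesin and CENP genes, CENPP was the one whose change in TPM departed most from that in counts. Relative to all tested genes its log2 change was 0.28 in counts and 0.13 in TPM, a difference of -0.14. The other kinesin and CENP genes with at least 1 TPM in mock lay between -0.03 and 0.08.

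Longer genes tended to have lower values. Across 47 tested genes the Spearman correlation of log2 fold change with counts per TPM, which is proportional to transcript length, was -0.38, and across 10726 tested genes it was -0.17. Within the 28 kinesins it was -0.19 and within the 19 CENP genes -0.31. These are descriptions across genes that share the same 6 libraries, and genes are not independent replicates.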
